A study of Mus musculus with 23 samples.

Results

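Bone marrow-derived macrophages exposed for 20 h to stearic acid (SA) were compared with macrophages exposed for the same time to oleic acid (OA), by genome-wide expression arrays. The comparison takes 4 SA arrays and 4 OA arrays, 8 of the 23 arrays of the series, chosen by the treatment and time in their titles. All 19938 genes with a probe set of a single gene symbol were tested, and the account below covers genes outside the unfolded protein response and the cell cycle. Macrophages came from wild-type C57BL/6 mice, grown out of marrow with M-CSF at 10 ng/mL, which was withdrawn after 6 days, and the adherent cells were treated 1 to 3 days later. Either acid was given at 250 µM on fatty acid-free, low-endotoxin bovine serum albumin (BSA) for 5 h or 20 h, with 4 arrays for each acid and time. The vehicle was 125 µM BSA alone (3 arrays), labelled 5 h in the sample labels and 4 h in the series text, so it differs from the 20 h groups in treatment and in time. A further 4 arrays of cells given lipopolysaccharide at 1 ng/mL entered the fit for the estimate of spread. Whether arrays of a group come from separate animals is unclear: they are named wells in the sample labels and biological replicates in the series text. Any p-value therefore reflects variation among the arrays at hand, part of which may be technical.

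Stearic acid is a saturated fatty acid, and oleic acid has the same chain length with a double bond. Cells activate both to acyl-CoA and place them in phospholipids, neutral lipids and sphingolipids, and saturated acyl chains pack more tightly in membranes than unsaturated ones. Macrophages depend on M-CSF signalling through its receptor for survival, and they carry receptors for debris, complement, antibody and microbial ligands by which they clear particles and sense their surroundings. The acids were compared as a single pair at matched dose and time.

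Levels are log2 expression, and a difference of 1 on this scale is 2-fold. The array medians of the tested genes in the 8 arrays lay between 4.23 and 4.33. Replicate 2 of the SA group stood apart, with a spread of gene deviations from the group means of 0.215 (SD) against 0.153 to 0.161 on the other 3 SA arrays. As a check of the labelled cell type, 9 of 10 measured macrophage markers had a mean above the median gene (4.25), Cd163 being the exception, and the mean level of the 10 markers was 8.65 to 8.76 on the SA arrays, 9.40 to 9.47 on the OA arrays and 9.24 to 9.34 with vehicle. Of these markers 8 were called lower with SA, whereas Cd68 (difference 0.03) and Tyrobp (-0.18) were not called. Among 67 measured markers of neutrophils, dendritic cells, lymphocytes, mast cells, erythroid cells and stromal cells, 1 was called, the B-cell receptor subunit Cd79b, at 4.58 with SA and 5.07 with OA. The mean level of the 12 neutrophil markers was 6.10 to 6.36 with SA and 6.21 to 6.34 with OA, and those of the other lists lay between 2.73 and 3.52 on these arrays. Of the 12 neutrophil markers, only 5 had a mean below the median gene. S100a8, S100a9 and Ngp read 11.53, 11.15 and 8.30 with SA and 11.46, 11.16 and 8.31 with OA.

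At 20 h, 1539 genes (7.72% of those tested) were higher with SA and 1785 (8.95%) were lower, together 16.7%, at an adjusted p under 0.05 in limma with Benjamini-Hochberg adjustment over all genes. A difference of at least 2-fold was reached by 141 called genes that were higher (0.707%) and 313 that were lower (1.57%). Outside the unfolded protein response and cell cycle lists these numbers were 1449 higher and 1541 lower, of which 116 and 200 reached 2-fold. The median difference over all genes was 0.03 and the median SE was 0.12. Of the 116 genes, 107 had every SA array above every vehicle array (12.9% of all genes tested), and 45 had every OA array below every vehicle array (7.89%). Among the 200 lower genes, 187 had every SA array below every vehicle array (11.5% of all genes), and 83 had every OA array above them (9.5%). The genes were chosen for the gap between the acids, which places an acid away from the vehicle in most cases, so these counts are a description. Medians of gene lists were small and depended on single arrays: with an array left out, 32 of the 41 list medians described below moved over 1.5 times or turned sign, 17 of them without SA replicate 2. None of the 12 that turned sign was above 0.06 in size, and for lists with medians of 0.08 or more the moved values are given. Counts of called list members below stand beside the shares over all genes tested, 7.72% higher and 8.95% lower. Some lists lie near these shares. In what follows, ± after a level is the SD over the arrays of a group (n = 4 for each acid and n = 3 for vehicle), and ± after a difference, always SA minus OA at 20 h, is its SE. The vehicle is labelled 5 h. In a gap between vehicle and a 20 h level, acid and time therefore cannot be told apart.

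**Figure D1:**
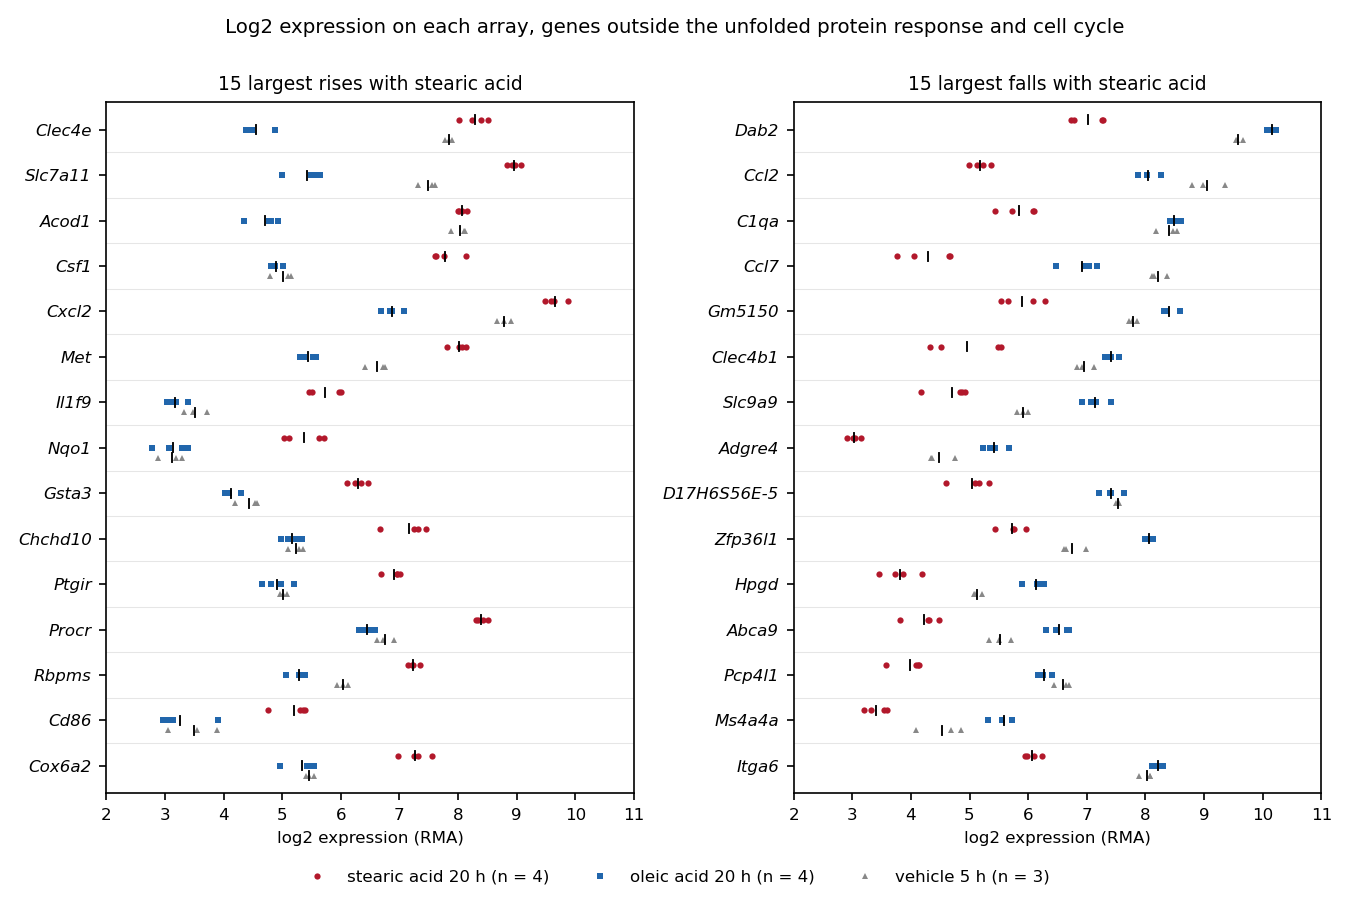
Log2 expression (horizontal axis) of the 15 genes with the largest rises and the 15 with the largest falls with SA, outside the unfolded protein response and cell cycle. Each point is an array (circles SA 20 h, squares OA 20 h, triangles 5 h vehicle) and black ticks are group means. The rule that chose these genes required that the SA and OA arrays do not overlap. Csf1 with OA lies near its vehicle level (4.89 against 5.01), whereas Acod1 with SA at 20 h lies near its 5 h vehicle level (8.06 against 8.04). At 5 h, not drawn here, Acod1 was at 9.65 with SA and 7.45 with OA.

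The growth factor that had been withdrawn from the medium was among the leading rises. Csf1, which encodes M-CSF, was measured at 7.77, 7.62, 8.13 and 7.63 on the 4 SA arrays and at 4.87, 4.87, 5.01 and 4.81 on the 4 OA arrays. All SA arrays were high and the groups did not overlap, and the vehicle, at 5.01 ± 0.19, lay with OA. The difference was 2.90 ± 0.13, 7.45-fold (adjusted p = 3.55e-14). Csf1r, its receptor, was lower with SA, at 9.52, 9.52, 9.39 and 9.49 against 10.04, 10.06, 10.05 and 9.96. The groups did not overlap for the receptor either, and its difference was -0.55 ± 0.07 (adjusted p = 1.65e-06). Met, the receptor tyrosine kinase for hepatocyte growth factor, read 8.02, 7.81, 8.14 and 8.07 with SA and 5.53, 5.30, 5.37 and 5.58 with OA. The vehicle level of Met, 6.63 ± 0.18, was between the acids, and the difference was 2.56 ± 0.10 (5.91-fold, adjusted p = 4.75e-15).

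Among 56 measured cytokines and growth factors, 9 were higher with SA and 16 lower, with a median difference of 0.01. Il1f9, which encodes the epithelial and myeloid cytokine IL-36 gamma, was measured at 5.46, 5.51, 5.97 and 6.00 with SA and 3.40, 3.09, 3.19 and 3.03 with OA (difference 2.56 ± 0.19, adjusted p = 2.41e-10). The OA arrays lay below the median gene and next to the vehicle, at 3.51 ± 0.20, so the size of this difference is uncertain. Il1a was higher (1.60 ± 0.25, adjusted p = 3.47e-05) with both means below the median gene, while Il1b, which encodes the other main IL-1 receptor agonist, was lower at 3.25 ± 0.27 with SA and 4.58 ± 0.30 with OA (-1.33 ± 0.15, adjusted p = 2.27e-07). With either acid at 20 h Il1b was under its vehicle level of 6.16 ± 0.20. At 5 h it stood at 5.48 ± 0.22 with SA and 5.80 ± 0.15 with OA. Igf1, a trophic factor made by macrophages, was lower, at 9.74 ± 0.07 against 10.62 ± 0.04 (-0.88 ± 0.07). The anti-inflammatory cytokine Il10 was also lower (-0.55 ± 0.13, adjusted p = 0.00226) and Il6 higher (0.64 ± 0.17, adjusted p = 0.00835), with every mean of these genes below the median gene. Of 65 cytokine and growth factor receptors, 5 were higher and 15 lower (median -0.03), and Met was the only rise of 2-fold or more. Il10ra, a subunit of the IL-10 receptor, differed by -1.23 ± 0.11, Ifngr1, the ligand-binding chain of the interferon gamma receptor, by -1.13 ± 0.08, and the receptor tyrosine kinase Axl by -0.97 ± 0.12.

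In the TNF ligand and receptor superfamily, 7 of 41 measured members were higher and 2 lower (median 0.09, 0.06 without OA replicate 1). The lower count was 1 when replicate 1, 3 or 4 of either acid was left out. Tnfrsf26 and Tnfrsf23, the latter a decoy receptor of the mouse for TRAIL, differed by 1.73 ± 0.15 and 0.91 ± 0.11, and the death receptor Fas by 0.90 ± 0.14. Tnfrsf11a, which encodes RANK, was measured at 5.78 ± 0.10 with SA and 7.09 ± 0.10 with OA (-1.31 ± 0.10, adjusted p = 1.45e-10). The cell death list held 7 higher and 8 lower of 47 members (median -0.03). Within it Mlkl, the pore-forming effector of necroptosis, was higher (0.73 ± 0.09, adjusted p = 1.73e-06), whereas Ripk3, the kinase that phosphorylates it, was lower (-0.63 ± 0.12, adjusted p = 0.0003). Bcl2l11, which encodes the pro-apoptotic protein BIM, was lower by comparison with OA (-0.60 ± 0.10).

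Of 61 measured glutathione, thioredoxin and NADPH oxidase genes, 25 were higher with SA and 8 lower. The list had 9 rises and 1 fall of 2-fold or more, with a median difference of 0.15. Gsta3, a glutathione transferase, read 6.10, 6.24, 6.35 and 6.47 with SA and 4.10, 4.09, 4.29 and 4.03 with OA. All 4 SA arrays were high, the OA arrays were near the vehicle (4.44 ± 0.21), and the difference was 2.16 ± 0.14 (adjusted p = 1.14e-11). Nqo1, the quinone reductase widely used as a readout of the transcription factor NRF2, was measured at 5.38 ± 0.34 with SA and 3.13 ± 0.27 with OA (2.24 ± 0.22). Gclm, the modifier subunit of glutamate-cysteine ligase, stood at 9.80, 9.54, 9.80 and 9.80 with SA and 7.95, 7.83, 7.92 and 7.94 with OA, with the vehicle at 9.05 ± 0.14 between them. The groups did not overlap, and the difference was 1.83 ± 0.08 (adjusted p = 5.19e-14). Against this direction Glrx, which encodes glutaredoxin, was lower, at 6.62, 6.23, 6.32 and 6.47 with SA and 8.50, 8.33, 8.50 and 8.38 with OA, both under the vehicle level of 9.52 ± 0.03. At 5 h Glrx stood at 8.97 ± 0.15 with SA and 9.38 ± 0.12 with OA. The difference of Glrx at 20 h was -2.02 ± 0.09 (adjusted p = 4.45e-14). Hmox1, the heme oxygenase, differed by only 0.22 ± 0.07 (adjusted p = 0.0307), with overlapping groups, and its call was lost without SA replicate 1, 3 or 4 or OA replicate 1, 2 or 3, at adjusted p-values between 0.0515 and 0.129.

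Amino acid transporters included 12 rises and 5 falls among 39 measured members (median 0.10). Slc7a11, the light chain of the cystine importer that feeds glutathione synthesis, was measured at 8.97, 8.92, 9.07 and 8.83 with SA and 5.49, 5.54, 4.99 and 5.64 with OA. The vehicle, at 7.49 ± 0.15, lay between groups that did not overlap. Slc7a5, a large neutral amino acid transporter, differed by 1.31 ± 0.14 and Slc43a3, a purine nucleobase transporter of an amino acid transporter family, by 1.28 ± 0.13. Slc7a8, another light chain for large neutral amino acids, went the other way, at 5.74, 5.50, 5.73 and 5.70 with SA and 7.35, 7.33, 7.27 and 7.26 with OA. The vehicle level of Slc7a8 was higher than either, at 8.60 ± 0.06, and the difference was -1.63 ± 0.08 (adjusted p = 1.5e-13). In serine, one-carbon, proline and glutamine metabolism 7 of 33 members were higher and 4 lower (median 0.09, 0.04 without SA replicate 3). The mitochondrial folate enzyme Mthfd2 differed by 1.23 ± 0.13, the aspartate transaminase Got1 by 0.63 ± 0.11 and the proline synthesis enzyme Aldh18a1 by 0.57 ± 0.12. Glul, the glutamine synthetase, was lower (-0.67 ± 0.10, adjusted p = 2.7e-05), and a dimmer probe set of Glul, at a mean level of 7.30, gave -1.14. Slc7a11, Slc7a5 and Mthfd2 are also known targets of the stress factor ATF4.

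Promoters were searched for a C/EBP-ATF motif, TGATGCAA, on either strand, in the 300 bases from 250 before to 50 after the first listed RefSeq start (build GRCm38.p6). The motif was in 7 of 115 promoters of genes at least 2-fold higher (6.09%), in 2 of 246 of genes at least 2-fold lower (0.813%) and in 111 of 15614 over all tested genes with a promoter (0.711%). Of the 7 genes, Chac1, Herpud1 and Nupr1 belong to the unfolded protein response list. That list also holds ATF4-CHOP targets but is not complete for them, since the known ATF4 target Slc7a11 is outside it. The promoters of the other 4, whose genes are outside that list, are shown with the motif or its reverse complement in capitals. A rise of at least 2-fold was part of the choice of these promoters. They were chosen after the values were seen.
Slc7a11, chr3:50443564-50443863, minus strand: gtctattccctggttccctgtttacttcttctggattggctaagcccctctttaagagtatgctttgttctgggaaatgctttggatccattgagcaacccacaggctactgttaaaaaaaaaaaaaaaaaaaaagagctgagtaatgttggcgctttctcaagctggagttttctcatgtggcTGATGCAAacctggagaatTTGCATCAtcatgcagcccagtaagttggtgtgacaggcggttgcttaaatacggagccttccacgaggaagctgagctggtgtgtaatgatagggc
Chchd10, chr10:75932880-75933179, plus strand: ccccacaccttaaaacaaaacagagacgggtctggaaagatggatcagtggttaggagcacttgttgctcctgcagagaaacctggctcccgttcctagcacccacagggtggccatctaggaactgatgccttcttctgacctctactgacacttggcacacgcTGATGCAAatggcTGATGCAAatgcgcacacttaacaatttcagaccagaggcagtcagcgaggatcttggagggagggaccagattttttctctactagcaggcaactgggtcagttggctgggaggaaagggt
Ptgr1, chr4:58987029-58987328, minus strand: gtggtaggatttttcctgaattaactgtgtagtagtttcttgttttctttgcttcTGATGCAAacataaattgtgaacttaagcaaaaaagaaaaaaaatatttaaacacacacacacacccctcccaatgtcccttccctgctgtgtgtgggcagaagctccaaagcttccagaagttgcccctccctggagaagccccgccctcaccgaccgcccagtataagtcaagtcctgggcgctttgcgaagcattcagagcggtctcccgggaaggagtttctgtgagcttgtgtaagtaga
Samd8, chr14:21750281-21750580, plus strand: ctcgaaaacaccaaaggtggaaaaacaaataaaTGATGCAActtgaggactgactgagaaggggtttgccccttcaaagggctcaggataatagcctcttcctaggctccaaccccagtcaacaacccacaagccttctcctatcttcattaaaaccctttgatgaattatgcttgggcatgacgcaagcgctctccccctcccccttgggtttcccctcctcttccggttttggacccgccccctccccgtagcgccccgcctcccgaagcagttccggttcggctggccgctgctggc
Slc7a11 holds the motif once on each strand, and Chchd10 holds it 2 times. The differences of the 4 genes were 3.53 ± 0.11 for Slc7a11, 2.00 ± 0.16 for Chchd10, 1.24 ± 0.10 for the prostaglandin and aldehyde reductase Ptgr1 and 1.07 ± 0.10 for the sphingolipid enzyme Samd8.

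A motif of the NRF2-type antioxidant response element, TGACNNNGC, was in 22 of 115 promoters of genes at least 2-fold higher (19.1%), 37 of 246 at least 2-fold lower (15.04%) and 13.4% of all. The NF-kB motif GGGANTTCC was in 3.48%, 1.63% and 1.92% of the same promoters. These shares include genes of the unfolded protein response and cell cycle lists. Of the genes with the NRF2-type motif, 5 of the 22 and 14 of the 37 belong to them. Of those with the NF-kB motif, 2 higher and 2 lower genes do. The promoters of Gclm and Gsta3, antioxidant genes with large rises, hold the NRF2-type motif or its reverse complement (capitals). They were picked from the 22, and Nqo1 was not among the 22.
Gclm, chr3:122245307-122245606, plus strand: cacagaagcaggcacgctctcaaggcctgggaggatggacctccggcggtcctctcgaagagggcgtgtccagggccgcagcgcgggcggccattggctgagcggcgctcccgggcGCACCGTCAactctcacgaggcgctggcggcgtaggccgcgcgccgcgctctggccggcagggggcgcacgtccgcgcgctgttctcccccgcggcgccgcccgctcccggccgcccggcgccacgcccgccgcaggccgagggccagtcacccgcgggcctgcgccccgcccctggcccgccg
Gsta3, chr1:21240335-21240634, plus strand: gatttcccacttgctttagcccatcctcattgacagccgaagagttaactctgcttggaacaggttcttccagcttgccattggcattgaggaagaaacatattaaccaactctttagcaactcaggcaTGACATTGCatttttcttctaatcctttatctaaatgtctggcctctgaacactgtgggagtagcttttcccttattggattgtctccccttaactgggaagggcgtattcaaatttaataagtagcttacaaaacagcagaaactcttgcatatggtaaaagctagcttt
These matches are of letters only, and no factor was measured at these promoters.

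Genes for recognising opsonised and dying cells were lower with SA in many cases and rarely higher. None of 27 measured complement components and receptors was higher and 13 were lower, 7 of them at least 2-fold (median -0.19, -0.31 without SA replicate 1 and -0.30 without OA replicate 4). C1qa, a subunit of the recognition molecule C1q, was measured at 6.10, 5.73, 5.44 and 6.08 with SA and 8.60, 8.42, 8.42 and 8.52 with OA. The SA arrays were low and the OA arrays lay at the vehicle level of 8.40 ± 0.19, with a difference of -2.65 ± 0.15 (6.30-fold lower, adjusted p = 1.8e-12). C5ar1, the receptor for the chemoattractant C5a, read 8.17, 7.87, 7.84 and 8.04 with SA and 10.01, 9.99, 10.13 and 9.95 with OA. No SA array came within 1 log2 unit of an OA array, and the difference was -2.04 ± 0.08 (adjusted p = 2.2e-15). C1qb, another C1q subunit, differed by -1.92 ± 0.11 and Cfp, which encodes properdin, a stabiliser of the alternative pathway convertase, by -1.60 ± 0.12. Bulk arrays do not tell fewer cells of a type from less RNA per cell.

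Fc receptors and their signalling partners were represented by 16 genes, of which none was higher and 7 were lower (median -0.24). Fcgr1, the high-affinity receptor for IgG, read 5.98, 5.78, 5.66 and 6.07 with SA and 7.97, 7.82, 8.06 and 8.15 with OA, without overlap (-2.13 ± 0.12, adjusted p = 1.8e-12). The Fc receptor-like gene Fcrls differed by -2.12 ± 0.18, the Src-family kinase Fgr by -0.54 ± 0.11 and the inositol phosphatase Inpp5d by -0.51 ± 0.09. Of 36 genes of scavenging and apoptotic cell uptake, 3 were higher and 19 lower (median -0.29). Stab1, a scavenger receptor that also recognises phosphatidylserine, was measured at 6.03, 5.82, 5.48 and 5.84 with SA and 7.83, 7.80, 7.85 and 7.77 with OA. The OA and vehicle levels (7.92 ± 0.05) were close together and SA lay well under them, with a difference of -2.02 ± 0.09 (adjusted p = 1.38e-14). The endocytic adaptor Dab2 had the largest fall of the named genes (-3.15 ± 0.15), while a dimmer probe set of Dab2, at a mean level of 1.51, gave 0.14. Havcr2, which encodes TIM-3, differed by -1.77 ± 0.10 and Pros1, the bridging ligand protein S, by -1.46 ± 0.15. Itgb3, a vitronectin receptor subunit in the same list, was higher instead (1.03 ± 0.13, adjusted p = 1.23e-06).

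Of 25 measured C-type lectins 2 were higher and 9 lower, 5 of the latter at least 2-fold (median -0.21). Clec4e, an activating receptor for mycobacterial glycolipid and dead cells, was among the rises (3.74 ± 0.11). Its vehicle level, 7.84 ± 0.06, lay nearer to SA at 8.29 ± 0.22 than to OA at 4.56 ± 0.22. Clec4b1 read 5.48, 4.51, 4.33 and 5.54 with SA and 7.55, 7.36, 7.31 and 7.41 with OA. The SA arrays were spread over more than 1 log2 unit but all lay under the OA arrays (-2.44 ± 0.20, adjusted p = 8.57e-10). Mrc1, the mannose receptor, differed by -2.13 ± 0.12 and Clec4a1 by -1.67 ± 0.12. Among 41 TREM, CD300, Siglec and paired receptors with their adaptors, 5 were higher and 13 lower (median -0.11, -0.07 without OA replicate 4). Pilra, an inhibitory paired receptor, was measured at 5.05, 4.86, 5.16 and 5.42 with SA and 7.23, 7.34, 7.31 and 6.94 with OA, with the vehicle at 7.67 ± 0.27. All SA arrays were low (-2.08 ± 0.12, adjusted p = 4.94e-12). Slamf9, a SLAM-family receptor, differed by -1.89 ± 0.09, and the activating partners Pilrb1 and Pilrb2 by -1.56 ± 0.18 and -1.41 ± 0.21. Genes of these clusters are near-identical in places, and how far the probes tell them apart is unknown here.

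Chemokines moved in both directions, with 6 of 33 higher and 8 lower (median 0.02). The neutrophil chemokine Cxcl2 differed by 2.77 ± 0.10. Ccl7, a monocyte chemoattractant, read 4.06, 4.67, 3.77 and 4.65 with SA and 7.04, 6.47, 6.95 and 7.18 with OA, both under the vehicle level of 8.21 ± 0.14. The groups did not overlap (-2.62 ± 0.20, adjusted p = 2.41e-10), and Ccl12 of the same family was lower too (-1.65 ± 0.26), with SA below the median gene. Chemoattractant receptors held 3 rises and 7 falls among 28 members (median -0.01), and the 3 became 1 without OA replicate 1 or 3 or SA replicate 2 or 3. Ccrl2, a receptor that binds chemerin without signalling, was higher (1.64 ± 0.11), whereas Cx3cr1, the fractalkine receptor, read 4.76, 5.47, 4.77 and 5.05 with SA and 7.11, 7.14, 7.19 and 7.15 with OA. Cx3cr1 was at 8.36 ± 0.03 with vehicle. At 5 h it stood at 7.34 ± 0.11 with SA and 8.36 ± 0.06 with OA. Its difference between the acids at 20 h was -2.13 ± 0.12 (adjusted p = 9.59e-13). Ccr3, the eotaxin receptor, differed by -1.72 ± 0.11.

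Other G protein-coupled receptors included 5 rises and 17 falls among 55 members (median -0.01). Ptgir, the prostacyclin receptor, was measured at 7.02, 6.68, 6.96 and 6.95 with SA and 5.21, 4.66, 4.82 and 4.98 with OA. All SA arrays were high, the OA arrays lay within 1 log2 unit of the vehicle level of 5.02 ± 0.06, and the difference was 1.99 ± 0.11 (adjusted p = 1.8e-12). The endothelin receptor Ednrb was higher as well (1.88 ± 0.16), with OA below the median gene. Adgre4, an adhesion receptor related to F4/80, read 3.01, 2.91, 3.05 and 3.15 with SA and 5.67, 5.35, 5.23 and 5.43 with OA. The SA arrays were low and below the median gene, and the vehicle was in between at 4.48 ± 0.23 (-2.39 ± 0.14, adjusted p = 5.58e-12). Gpr34, a lysophosphatidylserine receptor, differed by -1.69 ± 0.11 with both means below the median gene.

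**Figure D2:**
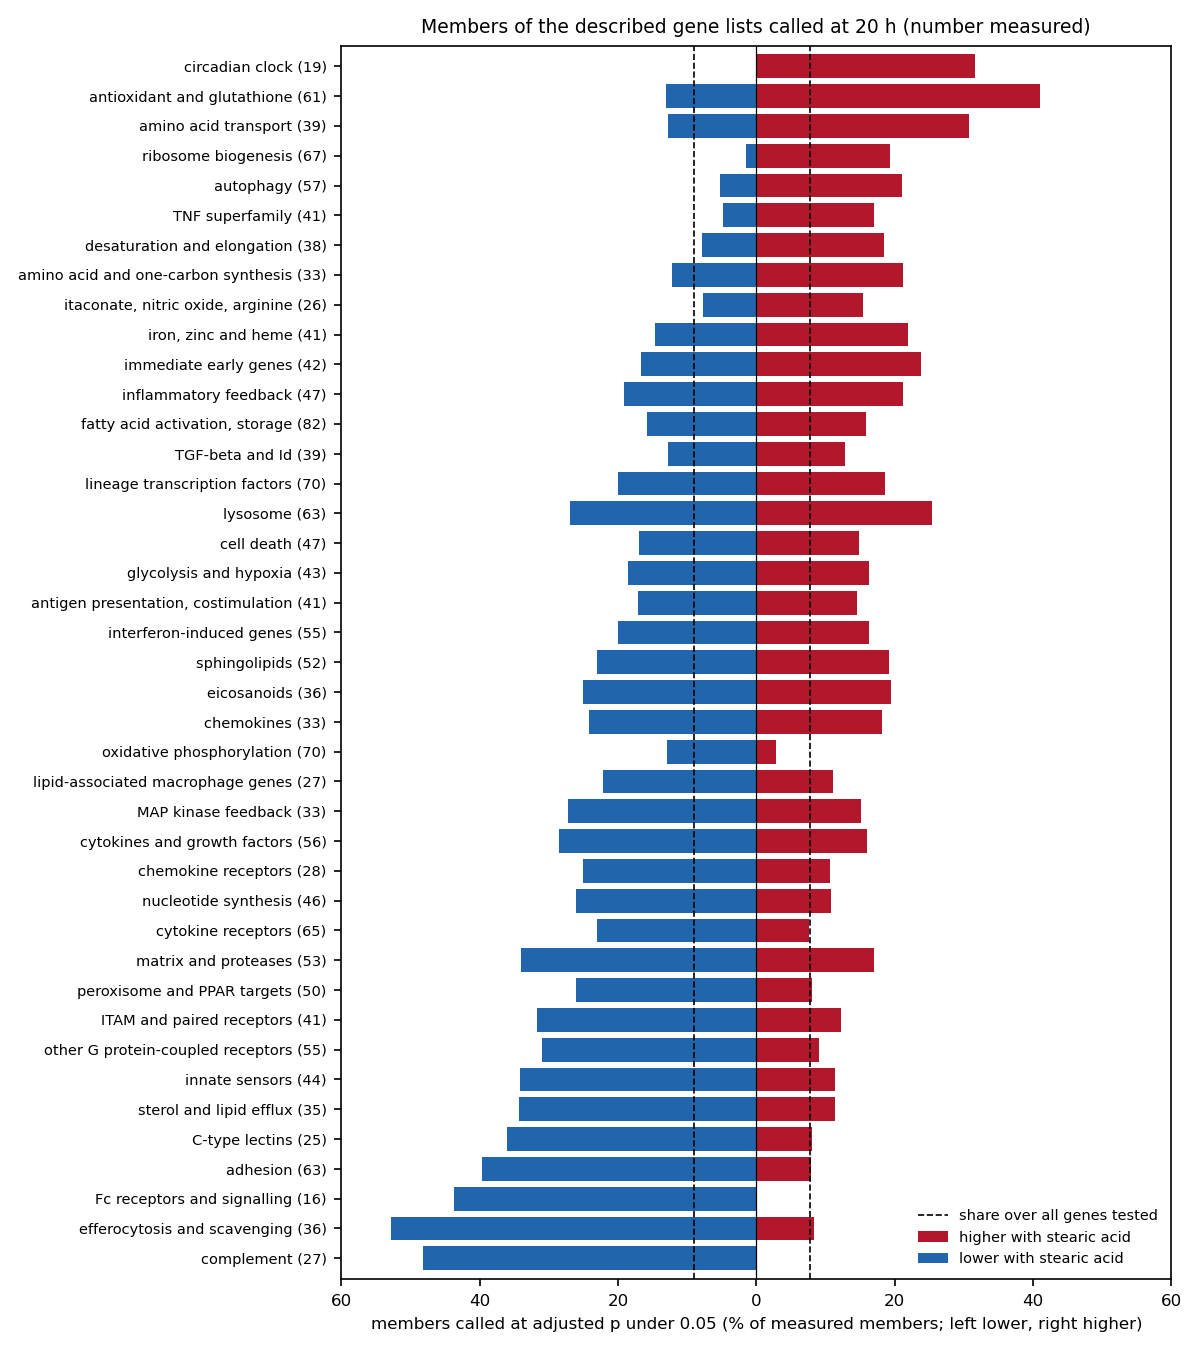
Share of the measured members of each of the 41 described gene lists that were called higher (right, red) or lower (left, blue) with SA than with OA at 20 h, in percent, with the number of measured members in brackets. Dashed lines give the shares over all genes tested, 7.72% and 8.95%. The longest bar to the right (41.0%) is that of glutathione, thioredoxin and NADPH oxidase genes. Scavenging and apoptotic cell uptake has the longest bar to the left (52.8%).

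Sensors of microbial ligands were lower more often than higher, 15 against 5 of 44 members (median -0.16). Tlr8, an endosomal receptor for RNA, read 6.13, 6.11, 5.81 and 6.24 with SA and 7.86, 7.84, 7.75 and 7.83 with OA, with the vehicle at 7.36 ± 0.11 (-1.75 ± 0.09, adjusted p = 2.96e-13). Every SA array was low. Ly86, which encodes MD-1, the partner of the Toll-like protein RP105, differed by -1.66 ± 0.09, the inflammasome sensor Nlrp1b by -1.54 ± 0.11 and the lipopeptide receptor Tlr1 by -1.26 ± 0.10. Tlr4 itself was not called, at 8.10 ± 0.11 against 8.29 ± 0.05, with a 95% interval of the difference from -0.36 to -0.01 and an adjusted p of 0.151.

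Feedback regulators of cytokine and NF-kB signalling held 10 rises and 9 falls among 47 members (median 0.10, 0.06 without SA replicate 1). Zfp36l1, which promotes decay of AU-rich messenger RNAs, was measured at 5.72 ± 0.22 with SA and 8.06 ± 0.07 with OA. SA lay under and OA over the vehicle level of 6.75 ± 0.21, and the difference was -2.33 ± 0.16 (adjusted p = 8.81e-11). Tnip3, an A20-binding inhibitor of NF-kB, differed by -1.21 ± 0.10, the pseudokinase Trib1 by -1.17 ± 0.11 and the RNA-binding nuclease family member Zc3h12d by -1.16 ± 0.15. MAP kinase phosphatases, Sprouty genes and targets of ERK held 5 rises and 9 falls among 33 members (median -0.02). Etv5, an ETS factor induced by ERK, read 6.11, 6.10, 6.50 and 6.18 with SA and 7.75, 7.74, 8.04 and 7.48 with OA. The SA arrays were all low against OA and vehicle (7.84 ± 0.08), with a difference of -1.53 ± 0.11 (adjusted p = 1.39e-10). Dusp6, the phosphatase of ERK, differed by -1.09 ± 0.09, Rasa1, a RAS GTPase-activating protein, by -1.07 ± 0.08 and Phlda1 by -1.07 ± 0.13. Csf1r, which signals through ERK, was lower too as given above, and its part in these falls was not tested.

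Of 42 immediate early factors, 10 were higher and 7 lower (median 0.08, 0.025 without SA replicate 2 and 0.03 without SA replicate 3). The AP-1 subunit Fos was measured at 6.53, 6.19, 6.11 and 6.39 with SA and 7.67, 7.53, 7.70 and 7.64 with OA, and vehicle was above both at 8.22 ± 0.18 (-1.33 ± 0.09, adjusted p = 4.56e-11). Myc was also lower without overlap (-0.87 ± 0.09, adjusted p = 4.51e-08). Of 19 measured circadian clock genes, 6 were higher and none was lower (median 0.16, 0.26 without SA replicate 2 and 0.08 without OA replicate 2). Bhlhe41, a transcriptional repressor of the clock, read 8.43, 8.55, 8.63 and 8.29 with SA and 6.78, 6.98, 6.86 and 6.91 with OA. SA was high on every array, the OA arrays lay within the range of the vehicle arrays (6.95 ± 0.21), and the difference was 1.59 ± 0.10 (adjusted p = 2.36e-11). Nfil3, a repressor of D-box genes, was measured at 6.78, 6.52, 6.47 and 6.74 with SA and 5.20, 5.10, 4.93 and 5.29 with OA (1.50 ± 0.14, adjusted p = 9.81e-09). Its groups did not overlap. Bhlhe40 differed by 0.91 ± 0.12 and the core repressor Cry1 by 0.64 ± 0.12. The groups share a single harvest time per treatment, so phase cannot be told apart from level.

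Transcription factors of the macrophage lineage held 13 rises and 14 falls among 70 members (median -0.03). Mef2c read 5.96, 5.86, 5.75 and 6.16 with SA and 7.54, 7.54, 7.46 and 7.50 with OA. Every SA array was low (-1.58 ± 0.10, adjusted p = 2.07e-11). Maf, a factor of tissue-resident macrophages, differed by -1.22 ± 0.11 and Nfatc2 by -1.11 ± 0.10. Pparg, a fatty acid-sensing nuclear receptor, was lower by -0.36 ± 0.09 while the related Ppard was higher by 0.89 ± 0.10 (adjusted p = 2.42e-07). In the TGF-beta, BMP and Id list 5 of 39 members were higher and 5 lower (median 0.02). That is 12.8% each way, against 7.72% and 8.95% of all genes. The higher count was 3 without OA replicate 2 or 3 or SA replicate 4. Id2 and Id3, inhibitors of helix-loop-helix factors, moved apart, with differences of 0.77 ± 0.08 and -0.72 ± 0.13. For Id3 both acids at 20 h were well under the 5 h vehicle, at 5.76 ± 0.28 and 6.49 ± 0.27 against 8.60 ± 0.15. At 5 h Id3 stood at 8.09 ± 0.11 with SA and 8.75 ± 0.07 with OA.

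**Figure D3:**
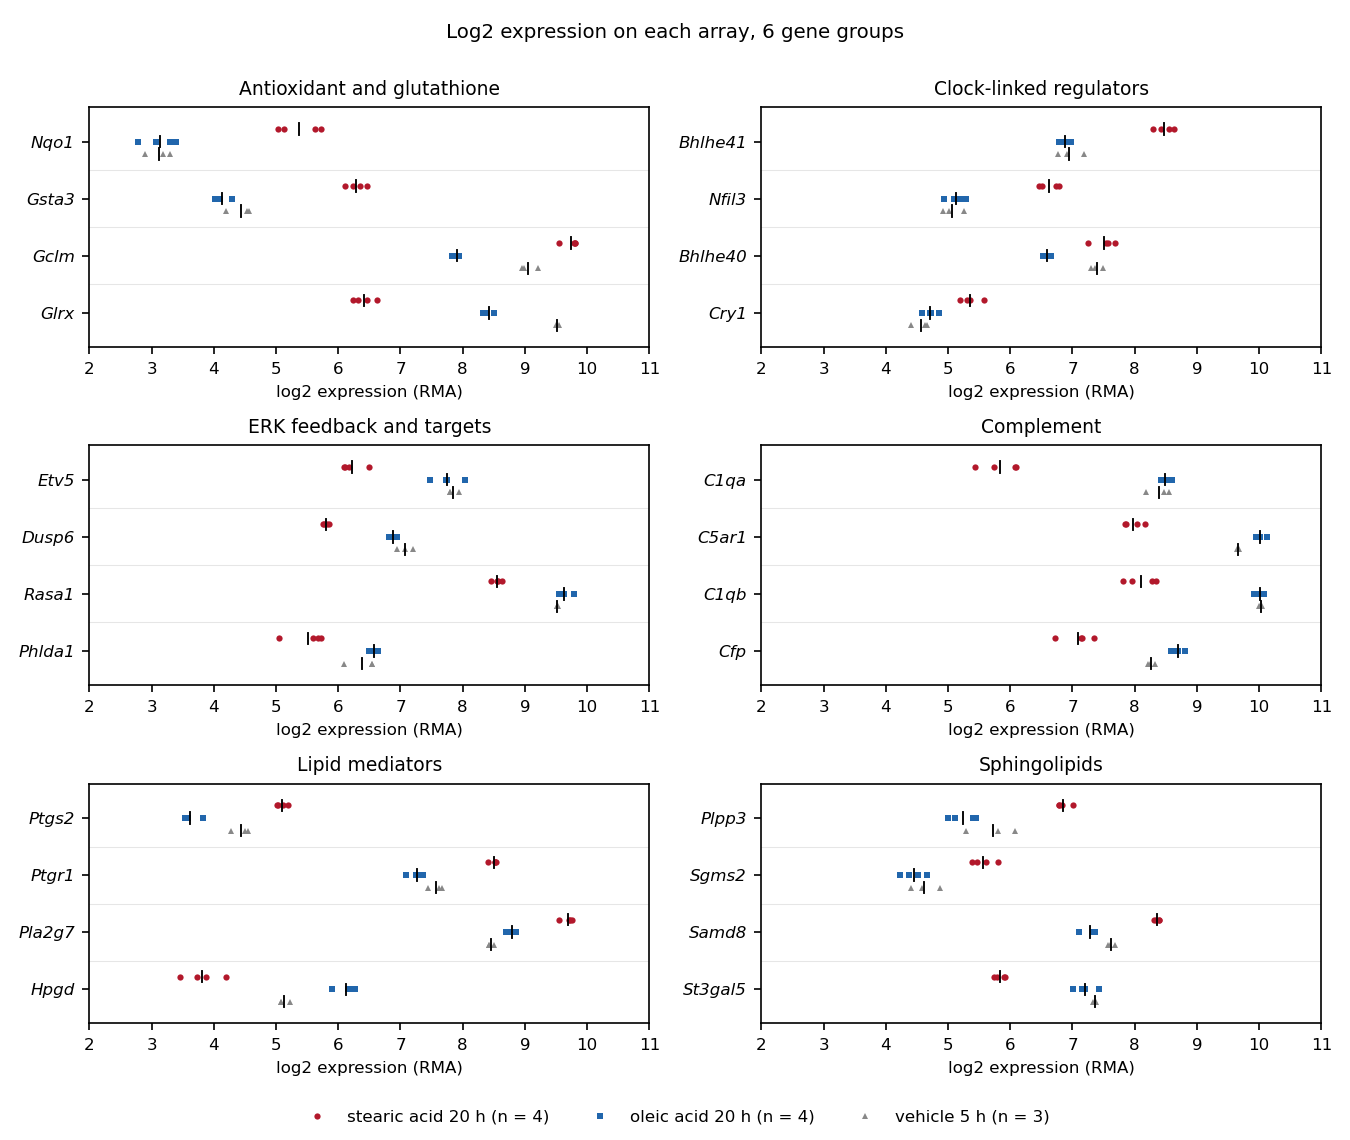
Log2 expression (horizontal axis) on each array for the named members of 6 gene groups, with circles for SA 20 h, squares for OA 20 h, triangles for 5 h vehicle and black ticks for group means. The 4 ERK-linked genes and the 4 complement genes are low with SA, the 4 clock-linked genes are high, and the antioxidant panel holds 3 rises and the fall of Glrx (6.41 against 8.43). The genes are the called members of their lists with the largest differences, so the separation of the acids follows from the choice. The whole ERK-linked list held 5 rises and 9 falls among 33 members, and 13 of 19 clock genes were not called.

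Enzymes of prostaglandins and other lipid mediators held 7 rises and 9 falls among 36 members (median 0.01). Ptgs2, the inducible cyclooxygenase, was measured at 5.04, 5.11, 5.02 and 5.19 with SA and 3.82, 3.54, 3.55 and 3.58 with OA, with the vehicle at 4.44 ± 0.15 between them (1.47 ± 0.11, adjusted p = 1.9e-10). Hpgd, the dehydrogenase that inactivates prostaglandins, went the opposite way, at 3.82 ± 0.31 with SA and 6.13 ± 0.16 with OA. The vehicle of Hpgd, 5.13 ± 0.08, was again between groups that did not overlap (-2.31 ± 0.18, adjusted p = 4.81e-10). Ptgr1, which further reduces oxidised prostaglandins, was higher (1.24 ± 0.10), as was Pla2g7, the secreted hydrolase of platelet-activating factor (0.90 ± 0.08).

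Genes of fatty acid uptake, activation and glycerolipid synthesis were split evenly, 13 higher and 13 lower of 82 (median 0.04). Acss2, the cytosolic enzyme that makes acetyl-CoA from acetate, read 5.76, 5.53, 5.49 and 5.67 with SA and 3.48, 3.70, 4.01 and 3.81 with OA. OA lay nearer than SA to the vehicle level of 4.02 ± 0.23 (1.86 ± 0.12, adjusted p = 1.51e-11). Slc27a6, a fatty acid transport protein, differed by 1.38 ± 0.15 and Mgll, the monoacylglycerol lipase, by 1.27 ± 0.11. The vehicle level of Mgll, 5.77 ± 0.21, was below both acids, at 8.11 ± 0.04 with SA and 6.84 ± 0.19 with OA. Lpcat1, an acyltransferase that uses saturated acyl-CoA, was lower (-1.09 ± 0.10, adjusted p = 1.42e-08). Of 38 genes of fatty acid synthesis, desaturation and elongation, 7 were higher and 3 lower (median 0.06), led by the desaturases Scd1 (1.22 ± 0.19, means below the median gene), Scd2 (0.96 ± 0.10) and Fads2 (0.92 ± 0.15) and the NADPH-producing malic enzyme Me1 (0.98 ± 0.14). For Scd2 the SA level of 7.93 ± 0.13 matched the vehicle at 7.96 ± 0.01 and OA was low at 6.97 ± 0.09.

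Sphingolipid genes held 10 rises and 12 falls among 52 members (median -0.02). The rises included enzymes that consume ceramide: Sgms2, a sphingomyelin synthase, differed by 1.12 ± 0.13, and Samd8, which makes ceramide phosphoethanolamine, by 1.07 ± 0.10. Plpp3, a phosphatase of lipid phosphates such as sphingosine-1-phosphate, was measured at 6.83, 7.01, 6.79 and 6.78 with SA and 5.40, 5.11, 5.00 and 5.44 with OA (1.61 ± 0.15, adjusted p = 6.15e-09). St3gal5, the synthase of the ganglioside GM3, read 5.91, 5.90, 5.79 and 5.75 with SA and 7.43, 7.15, 7.20 and 7.01 with OA. SA lay under OA and vehicle (7.36 ± 0.02), with a difference of -1.36 ± 0.10 (adjusted p = 1.67e-10).

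Among 35 genes of sterol and lipid efflux, 4 were higher and 12 lower (median -0.19, -0.12 without SA replicate 2). Pltp, the phospholipid transfer protein, was measured at 8.37, 8.13, 8.08 and 8.41 with SA and 9.85, 9.84, 9.82 and 9.78 with OA. All OA arrays lay above the vehicle (9.43 ± 0.04) and all SA arrays below it (-1.58 ± 0.09, adjusted p = 1.18e-12). Abca9, a lipid transporter of monocytes and macrophages, differed by -2.31 ± 0.12, the peroxisomal transporter Abcd2 by -1.24 ± 0.20 and the cholesterol exporter Abca1 by -0.72 ± 0.08. The transporter gene Abcg3 was lower with both means below the median gene (-0.99 ± 0.12). PPAR targets and fatty acid oxidation genes held 4 rises and 13 falls among 50 members (median -0.06). These are 8.0% and 26.0% of the list, against 7.72% and 8.95% of all genes. Hadhb, a subunit of the mitochondrial trifunctional protein, was at -0.70 ± 0.10 and the peroxisome proliferation gene Pex11a at 0.69 ± 0.15. In the list of lipid-associated macrophage genes 3 of 27 were higher and 6 lower (median 0.03), among them Apoe (-0.61 ± 0.09), the integrin Itgax (-0.66 ± 0.07) and the protease inhibitor Cst7 (0.61 ± 0.15).

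Lysosomal genes were called often and in both directions, 16 higher and 17 lower of 63 (median 0.02). Mcoln2, a cation channel of endolysosomes, read 8.50, 8.25, 8.48 and 8.54 with SA and 7.12, 7.19, 6.90 and 7.30 with OA, and the vehicle lay with OA (1.31 ± 0.10, adjusted p = 7e-10). The cathepsin Ctsc differed by -0.96 ± 0.12, the asparagine protease Lgmn by -0.86 ± 0.08 and the glucuronidase Gusb by -0.79 ± 0.08. Autophagy genes held 12 rises and 3 falls among 57 members (median 0.13, 0.08 without OA replicate 2), and the falls numbered 1 without OA replicate 2 or SA replicate 2 or 3. Sqstm1, the cargo receptor p62, was measured at 10.45, 10.54, 10.69 and 10.41 with SA and 8.77, 8.82, 8.92 and 8.87 with OA. The vehicle lay between the acids at 9.46 ± 0.08, and the difference was 1.67 ± 0.08 (adjusted p = 2.87e-13). Gabarapl1, an ATG8-family protein, differed by 0.62 ± 0.10, the initiation factor Atg13 by 0.56 ± 0.10 and the receptor Tax1bp1 by 0.55 ± 0.07.

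Iron, zinc and heme genes held 9 rises and 6 falls among 41 members (median 0.11, 0.07 without SA replicate 4). Slc30a1, the zinc exporter of the plasma membrane, read 8.56, 8.39, 8.46 and 8.45 with SA and 7.14, 7.10, 7.11 and 7.20 with OA, with the vehicle at 6.97 ± 0.04. The SA arrays were high without overlap (1.33 ± 0.07, adjusted p = 8.85e-13). Slc11a2, the divalent metal transporter DMT1, was higher by 0.92 ± 0.10, while Trf, which encodes transferrin, and its receptor Tfrc were lower by -1.43 ± 0.10 and -0.80 ± 0.08. In the list of itaconate, nitric oxide, arginine and polyamine enzymes 4 of 26 were higher and 2 lower (median 0.06), and the falls numbered 1 without OA replicate 1, 2 or 3 or SA replicate 1 or 2. Acod1, which makes itaconate, was higher by 3.35 ± 0.12, Gch1, the entry enzyme of tetrahydrobiopterin synthesis, by 0.66 ± 0.15 with overlapping groups, and the spermidine synthase Srm by 0.62 ± 0.11, whereas Ddah2 was lower (-0.79 ± 0.12).

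Adhesion molecules were lower more often than higher, 25 against 5 of 63 (median -0.15). Itga6, the alpha 6 integrin subunit of laminin receptors, was measured at 5.94, 6.11, 5.97 and 6.24 with SA and 8.26, 8.19, 8.12 and 8.31 with OA. OA lay near the vehicle (8.02 ± 0.11) and SA far under it (-2.15 ± 0.09, adjusted p = 4.7e-15). The leukocyte integrin subunits Itgal and Itgam differed by -1.21 ± 0.10 and -1.05 ± 0.08. Matrix, protease and coagulation genes held 9 rises and 18 falls among 53 members (median -0.05). Adam8, a membrane protease of myeloid cells, read 7.19, 7.03, 7.12 and 7.32 with SA and 9.04, 9.01, 9.09 and 9.06 with OA. The groups were each tight and far apart (-1.89 ± 0.07, adjusted p = 2.2e-15). Mmp9, a gelatinase, differed by -1.50 ± 0.15 and Tgfbi, a matrix protein induced by TGF-beta, by -1.46 ± 0.09. Procr, the receptor of protein C, was the exception among the leading genes, at 8.43, 8.31, 8.35 and 8.50 with SA and 6.40, 6.47, 6.31 and 6.59 with OA (1.96 ± 0.10, adjusted p = 1.84e-13). SA stood above the vehicle level of 6.75 ± 0.14 and OA below it.

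Antigen presentation and costimulation genes held 6 rises and 7 falls among 41 members (median -0.05). Cd274, which encodes the inhibitory ligand PD-L1, read 8.72, 8.64, 8.59 and 8.69 with SA and 6.52, 7.04, 6.54 and 6.91 with OA. SA was above and OA below the vehicle (7.31 ± 0.03), with a difference of 1.91 ± 0.11 (adjusted p = 3.92e-12). The costimulatory ligand Cd86 was measured at 5.39, 4.76, 5.31 and 5.35 with SA and 3.90, 2.96, 3.14 and 3.05 with OA, the latter below the median gene (1.94 ± 0.22, adjusted p = 2.69e-07). H2-M2, a non-classical class I gene, differed by 1.33 ± 0.11. Interferon-inducible GTPases and antiviral genes held 9 rises and 11 falls among 55 members (median 0.01), and the falls numbered 7 without OA replicate 1. Rsad2 and Ifit1, both antiviral effectors, were higher by 1.37 ± 0.17 and 1.09 ± 0.20, the latter with overlapping groups. The guanylate-binding protein gene Gbp9 and the restriction factor Ifitm2 were lower, by -1.03 ± 0.14 and -0.94 ± 0.11.

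The list of respiratory chain and ATP synthase subunits encoded in the nucleus, which also counts Chchd10, held 2 rises and 9 falls among 70 members. These are 2.86% and 12.9% of the list, against 7.72% and 8.95% of all genes. Its median difference was -0.13, and -0.05 with 6 falls without SA replicate 2. With a variance trend and robust moderation 17 falls were called, and 5 with only the compared groups in the fit. Both rises, Cox6a2 and Chchd10, exceeded 2-fold, and only Cox6a2 is a subunit. Cox6a2, the heart and muscle form of a cytochrome c oxidase subunit, was measured at 7.24, 7.31, 6.98 and 7.56 with SA and 4.97, 5.43, 5.44 and 5.54 with OA. SA stood high, whereas OA lay near or under the vehicle level of 5.46 ± 0.07 (1.93 ± 0.13, adjusted p = 2.73e-11). Chchd10, a protein of the mitochondrial intermembrane space, read 7.25, 6.67, 7.45 and 7.31 with SA and 4.97, 5.11, 5.34 and 5.24 with OA, the latter at the vehicle level of 5.24 ± 0.13. Cox7a1, another heart and muscle form of an oxidase subunit, was lower, at 5.29, 4.88, 4.97 and 5.29 with SA and 6.56, 6.19, 6.29 and 6.62 with OA (-1.31 ± 0.13, adjusted p = 4.8e-08). Atp5d of the ATP synthase was lower by -0.48 ± 0.12, with SA replicate 2 far below the other SA arrays, and was not called with only the compared groups in the fit (adjusted p = 0.0673).

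Glycolysis, lactate and hypoxia genes held 7 rises and 8 falls among 43 members (median -0.04), and the falls numbered 5 without OA replicate 1 or 4 or SA replicate 2. Pdk1, which restrains pyruvate entry into mitochondria, differed by -1.16 ± 0.11, the hypoxia-responsive Ankrd37 by -0.93 ± 0.15, the lactate dehydrogenase Ldha by -0.75 ± 0.10 and the triosephosphate isomerase Tpi1 by -0.60 ± 0.09. For Ldha the OA level was 8.94 ± 0.08 and the vehicle level 9.19 ± 0.06, with SA at 8.18 ± 0.15. Nucleotide metabolism held 5 rises and 12 falls among 46 members (median -0.05), with the AMP deaminase Ampd3 higher by 1.52 ± 0.10 and Nt5dc2, the adenylosuccinate synthase Adssl1 and the phosphoribosyl pyrophosphate synthetase Prps2 lower by -1.45 ± 0.11, -1.06 ± 0.10 and -0.92 ± 0.16. Ribosome biogenesis genes held 13 rises and 1 fall among 67 members (median 0.14). The nucleolar GTPase Gnl3 was measured at 7.88, 7.84, 7.85 and 7.88 with SA and 6.89, 7.03, 6.87 and 7.02 with OA (0.91 ± 0.10, adjusted p = 1.52e-07). SA was high and tight for Gnl3, whereas Wdr75 and Rrp12 differed by 0.56 ± 0.09 and 0.51 ± 0.12. The single fall, the polymerase subunit Polr1d (-0.47 ± 0.15), rested on SA replicate 2: it was -0.23 without that array and not called (adjusted p = 0.154), and it was not called without OA replicate 1, 3 or 4 either. A dimmer probe set of Polr1d, at a mean level of 7.89, gave -0.18. Without SA replicate 3 the falls numbered 2.

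Several leading genes belonged to none of the described lists. Rbpms, an RNA-binding protein gene, differed by 1.95 ± 0.09 and Bex1 by 1.91 ± 0.20. Falls included Gm5150 (-2.51 ± 0.16), Slc9a9, an endosomal sodium-proton exchanger (-2.44 ± 0.14), D17H6S56E-5 (-2.37 ± 0.12), Pcp4l1 (-2.29 ± 0.12) and the tetraspan membrane protein Ms4a4a (-2.17 ± 0.18). For Pcp4l1 and Ms4a4a the SA means lay below the median gene, so the size of these differences is uncertain. Sizes are likewise uncertain for the SA means of Abca9, Adgre4, Ccl12, Ddah2, Gbp9, Hpgd, Il1b and Pilrb2 and for the OA means of Acss2, Cd86, Ednrb, Gsta3, Il1f9, Inhba, Me1, Nqo1, Ptgs2 and Slc27a6.

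Some genes tied to fatty acid handling and macrophage state were not separated. Plin2, the lipid droplet coat protein that responds to fatty acid load, was measured at 10.54, 10.38, 10.59 and 10.48 with SA and 10.47, 10.41, 10.47 and 10.50 with OA. The groups overlapped and both lay above the vehicle (9.44 ± 0.07), and the 95% interval of the difference ran from -0.12 to 0.19. Cd36, a fatty acid translocase and scavenger receptor, was at 11.37 ± 0.03 against 11.40 ± 0.04 (interval -0.19 to 0.14). Nos2 and Arg1, the arginine enzymes of opposite macrophage states, were at or below 3.56 in both groups, with intervals of -0.26 to 0.36 and -0.35 to 0.25. Lpcat3, which places polyunsaturated chains in phospholipids, had an interval of 0.01 to 0.37 and an adjusted p of 0.152.

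The difference between the acids changed from 5 h to 20 h for 992 genes (4.98%), in 315 upward and in 677 downward, by the test of that change in the same fit. These counts include the excluded lists, and 804 of the 992 genes lay outside them. Outside the excluded lists 79 of the 116 genes that were at least 2-fold higher at 20 h were already called higher at 5 h, where 3.3% of all genes were called higher, and 98 of the 200 lower genes were already called lower, against 2.37% of all genes. Of the 200, 1 was called the opposite way at 5 h. These genes were chosen by their difference at 20 h, so no count of their changes with time is given. Cox6a2 showed a difference of -0.03 ± 0.13 at 5 h and 1.93 ± 0.13 at 20 h, a change of 1.96 ± 0.18 (adjusted p = 6.26e-08). Chchd10 went from 0.10 ± 0.16 to 2.00 ± 0.16 (change 1.90 ± 0.22) and Bex1 from -0.35 ± 0.20 to 1.91 ± 0.20 (change 2.26 ± 0.29). C1qa went from -0.27 ± 0.15 to -2.65 ± 0.15 (change -2.39 ± 0.21, adjusted p = 3.56e-08) and Slc9a9 from -0.23 ± 0.14 to -2.44 ± 0.14 (change -2.21 ± 0.20). Clec4e, Slc7a11 and Dab2 were called at 5 h and their differences changed further, by 2.07 ± 0.15, 1.94 ± 0.16 and -2.56 ± 0.21. The level of Clec4e fell with both acids between the times, from 8.93 to 8.29 with SA and from 7.26 to 4.56 with OA. Ccl2 and Ccl7, at 0.48 ± 0.16 and 0.44 ± 0.20 at 5 h and not called there, changed by -3.34 ± 0.22 and -3.07 ± 0.28. Hmox1 differed less at 20 h, with 0.69 ± 0.07 at 5 h and 0.22 ± 0.07 at 20 h (change -0.47 ± 0.10, adjusted p = 0.00443).

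**Figure D4:**
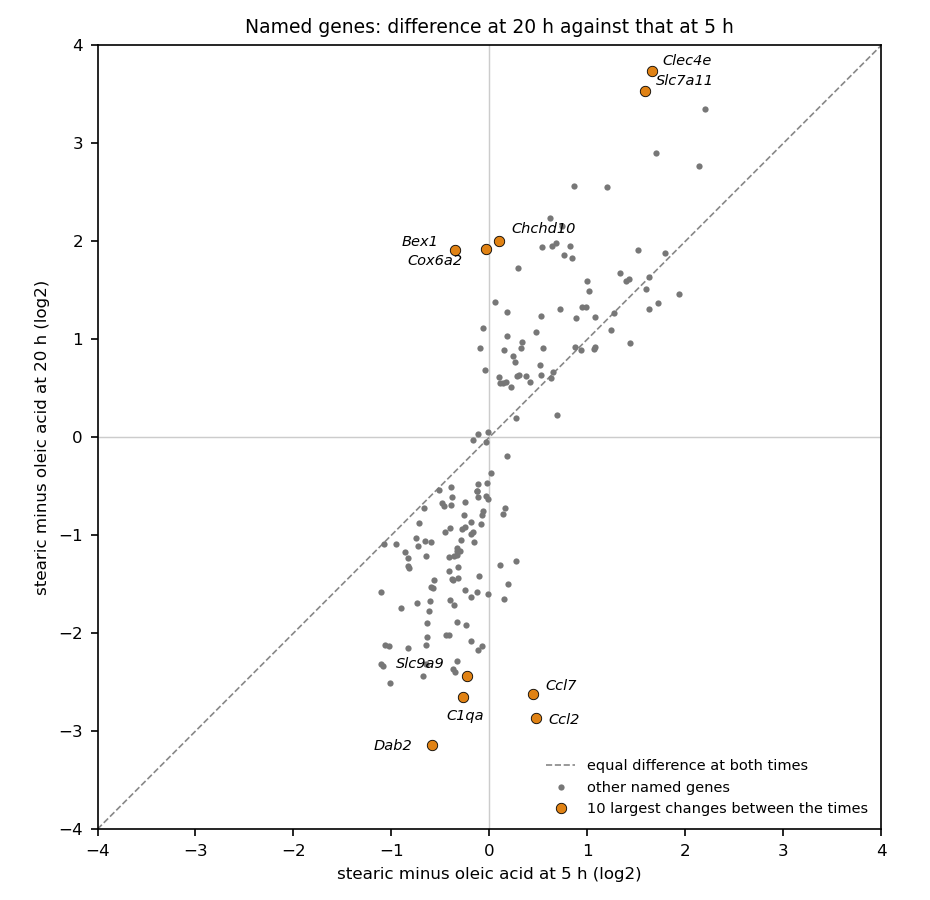
Difference between SA and OA (log2) at 5 h (horizontal axis) and at 20 h (vertical axis), with a point for each named gene outside the unfolded protein response and cell cycle. Orange points are the 5 largest positive and 5 largest negative changes between the times, and the dashed line marks equal differences. Cox6a2, Chchd10 and Bex1 lie near 0 at 5 h and near 2 at 20 h, and Ccl2 and Ccl7 pass from 0.48 and 0.44 to -2.87 and -2.62.

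Probe sets for microRNA genes were called less often than genes overall: of 296 such genes tested, 3 were higher (1.01%), 10 lower (3.38%) and 283 not called (median 0.02), against 7.72% and 8.95% of all genes. The shares were not matched for level, and several of the called microRNA genes had means below the median gene. MicroRNA genes were examined after the other values had been seen, and the called genes below are given as single genes. The probes read amplified total RNA, so they can report hairpin precursors or longer host transcripts, and mature microRNAs were not shown to be measured. The mature sequences of 4 called genes that lie in 2 neighbouring pairs are given below from RefSeq (GRCm38.p6) with the seed, bases 2 to 8, in capitals.
miR-99a-5p, chr16:77598940-77598961, plus strand: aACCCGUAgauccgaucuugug
let-7c-5p, chr16:77599672-77599693, plus strand: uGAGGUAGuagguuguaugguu
miR-15a-5p, chr14:61632075-61632096, minus strand: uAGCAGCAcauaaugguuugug
miR-16-5p, chr14:61631936-61631957, minus strand: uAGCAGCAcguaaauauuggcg
miR-15a-5p and miR-16-5p share the seed AGCAGCA, whereas miR-99a-5p and let-7c-5p have different seeds. Mir99a and Mirlet7c-1 are neighbours on chromosome 16, where Mir99a starts 40.5 kb beyond the annotated end of the non-coding gene Mir99ahg, and Mir15a and Mir16-1 are neighbours on chromosome 14.

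The long non-coding Mir99ahg was measured at 3.86, 3.18, 4.10 and 4.15 with SA and 5.94, 6.17, 5.87 and 5.59 with OA. The SA arrays were low, all below the median gene of 4.25, and OA lay at the vehicle level of 5.81 ± 0.23 (-2.07 ± 0.18, adjusted p = 2.44e-09). Mir99a read 5.20, 4.94, 4.89 and 5.69 with SA and 6.93, 6.94, 6.26 and 6.28 with OA (-1.42 ± 0.22, adjusted p = 2.95e-05), and Mirlet7c-1 differed by -1.21 ± 0.27 with both means below the median gene. Mir16-1 was at 3.56 ± 0.45 against 4.85 ± 0.21 (-1.30 ± 0.25, adjusted p = 0.000355), with SA below the median gene, and Mir15a at 6.68 ± 0.10 against 7.24 ± 0.13 (-0.56 ± 0.11, adjusted p = 0.000551). Dleu2, the host transcript of the latter pair, was not called, with both means below the median gene (-0.35 ± 0.22, adjusted p = 0.346). Mir221 (-0.64 ± 0.11) and Mir146 (-0.95 ± 0.31, adjusted p = 0.0367, both means below the median gene) were lower too, and Mir181b-2 was higher (0.83 ± 0.25, adjusted p = 0.0193) with OA below the median gene. The sizes of the differences with a mean below it are uncertain.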

How the data were processed

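RNA of the 23 samples was amplified from about 10 ng of input and hybridised singly to expression arrays with a biotin label, per the labels' protocols. Values came as log2 signals of probe sets, deposited by the authors after RMA, with limma named beside it, per the submitters' processing notes; versions and genome build are not given in the sources used here. RMA fixes each array's distribution, so levels are relative, and array number limits the precision. Of 35556 probe sets, 21789 carry 1 gene symbol in the platform annotation, 1621 carry several and 12146 are not in the table used here; 21698 of the first matched RefSeq symbols and 0 were renamed. For 999 genes with more than 1 probe set, the brightest on average was used.

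Group means of all 6 groups were fitted with limma 3.58.1 (R 4.3.3, lmFit and eBayes) and p-values were adjusted by Benjamini-Hochberg over 19938 genes, with calls at an adjusted p under 0.05. The fit was tested on simulated data. Named genes were the 15 largest rises and falls without overlap outside the excluded lists, up to 4 called members of each of 41 lists with the largest differences, 21 anchor genes, and the 5 largest changes with time in each direction, 179 in all; Acsl1 and Gapdh had no probe set of 1 symbol. The members and lists were chosen with earlier results of these data known. Lists are described by counts and medians with no test. Alternatives were array scaling, variance moderation, array weights, a filter on dim genes, probe set choice, the groups fitted, a replicate block and leaving out arrays. Tables used Python 3.11.15 with pandas 2.3.3.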

Additional observations from a re-analysis of the deposited data

Results flagged for a closer look

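Among the named genes, 358 groups of 4 arrays were examined for an array far from the other 3 by Dixon's criterion, which chance meets in about 1 of 20 groups, and 19 met it. Of these, 11 were SA groups at 20 h and 8 were OA groups, and in 7 the array was SA replicate 2, which was the lowest each time. That array read 5.68 for Adssl1 (the others 5.99 to 6.00), 10.55 for Apoe (10.97 to 10.98), 8.37 for Atp5d (9.10 to 9.18) and 4.76 for Cd86 (5.31 to 5.39). It read 6.35 for Gch1 (7.08 to 7.09), 9.54 for Gclm (9.80 on each of the others) and 8.41 for Ptgr1 (8.52 to 8.54). Of the other SA arrays, replicate 1 was high for Ccrl2 at 7.82, replicate 3 was high for Me1 at 4.66, and replicate 3 was low for Pcp4l1 at 3.57 and for Slc9a9 at 4.17.

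Of the OA arrays, replicate 1 was high for Gm5150 at 8.59, for Ptgs2 at 3.82 and for Zc3h12d at 7.31, and replicate 3 was high for Ccrl2 at 6.24 and low for Samd8 at 7.11. Replicate 4 was low for Ccr3 at 6.07 and for Mlkl at 5.10, and replicate 2 was low for Mmp9 at 8.13.

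The difference between the acids changed from 5 h to 20 h, by the test of that change in limma, in the 10 genes named for it. The changes were 2.26 for Bex1, 2.07 for Clec4e, 1.96 for Cox6a2, 1.94 for Slc7a11 and 1.90 for Chchd10, and -3.34 for Ccl2, -3.07 for Ccl7, -2.56 for Dab2, -2.39 for C1qa and -2.21 for Slc9a9.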

How the results depend on the processing

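Across the alternatives, genes higher with SA numbered 1299 to 1918, genes lower 1573 to 1932, and genes changed between the times 874 to 1228, all within 1.5 times of the reported counts. Leaving out an array gave 1299 to 1573 higher, 1573 to 1749 lower and 874 to 1026 changed with time. With the replicate block the counts were 1527, 1786 and 997. The replicate numbers were not taken to pair the samples in the main fit. The deviations of same-numbered SA and OA arrays correlated at 0.114, 0.201, 0.025 and 0.110. Every array matched its own number best except OA replicate 3, which matched SA replicate 2. Whether same-numbered arrays share a batch was not tested. Of 173 named called genes, 3 lost the call in some setting: Hmox1 (adjusted p 0.0515 to 0.146), Polr1d (0.0536 to 0.154) and Atp5d (0.0673). Direction turned only for genes that were not called: Cd36 gave 0.0415 after quantile normalization, and with an array left out Arg1 ranged from -0.1404 to 0.0060 (positive without OA replicate 2 or 3) and Nos2 from -0.0512 to 0.1744 (negative without replicate 1 of either acid). Of 1600 list counts, 51 moved over 1.5 times. Beside those given above, rises of innate sensors went from 5 to 8 with array weights, rises in nucleotide metabolism from 5 to 8 with array weights or quantile normalization, and rises in ribosome biogenesis from 13 to 21 after quantile normalization. The causes were not tested. Levels below the median gene, 4.25, limit the sizes of the differences named as uncertain.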
